A study of Mus musculus with 12 samples.

Results

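Kupffer cells are the resident macrophages of the liver, and 10 genes that mark them or macrophages in general were followed here in normal livers and in *c-MYC*/*MCL1*-driven mouse liver tumors. The genes were fixed by symbol, and all 10 were among the 17007 genes listed for the 12 tissue libraries and among the 14397 genes expressed highly enough to be tested. *Clec4f*, *Vsig4*, *Cd5l*, *Timd4* and *Marco* were taken as the Kupffer-restricted members, and *Adgre1*, *Csf1r*, *Cd68*, *C1qa* and *C1qb* as the general macrophage members. These names serve as labels only, and whether other macrophages held the transcripts of the first set was not tested. *Marco* in particular departed from the rest of its set, as given below. RNA was sequenced from whole tissue. Each value therefore reads the macrophage content of a piece of liver or tumor together with the RNA that each macrophage holds. Any RNA of the same gene in other cells, tumor cells included, adds to it, and that part was not tested. In bulk tissue fewer cells of a type and less RNA per cell cannot be told apart.

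The 4 groups held 3 libraries each. The normal livers came from wild-type C57BL/6 mice, for which the labels give no treatment and no injection. The tumors were *c-MYC*/*MCL1* HCCs raised by hydrodynamic injection, a rapid tail vein injection that carries plasmids into hepatocytes, in mice of C57BL/6J background with floxed *Rictor* and floxed *Tsc2* (*Rictor* fl/fl, *Tsc2* fl/fl), so that *c-MYC*, *MCL1* and a CMV promoter-driven Cre recombinase were expressed in the hepatocytes that took them up. All 9 tumors therefore shared the transgenes, the injection and the loss of *Rictor* and *Tsc2* in Cre-expressing hepatocytes. Tumor-bearing mice were gavaged with vehicle, with MLN0128, which blocks the mTOR kinase in both of its complexes, or with everolimus, a rapamycin analog that acts on mTORC1. Each drug was given at 1 mg/kg per day on 6 days a week for 3 weeks from 6 days after injection, and mice were sacrificed 3.7 weeks after injection, as the labels and methods state. The account of the sequencing experiment elsewhere gives 3 days of dosing, so the length of treatment behind every drug comparison is uncertain. Ages were not given in the sources used here, and whether the libraries of a group came from separate cages or days was not stated, so p-values measure the spread between these libraries.

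As background, Kupffer cells sit inside the liver sinusoids, where they capture particles, bacteria, aged red cells and debris from portal blood. They settle in the liver before birth and keep themselves up with CSF1 signals and with cues from endothelial cells, stellate cells and hepatocytes. CLEC4F is a C-type lectin found almost only on mouse Kupffer cells, VSIG4 is a receptor for complement fragments, TIMD4 binds phosphatidylserine on dying cells, MARCO is a scavenger receptor and CD5L is a protein that macrophages secrete. ADGRE1, the F4/80 antigen, and CSF1R, the receptor for CSF1 and IL-34, are carried by nearly all mouse tissue macrophages. CD68 is a lysosomal membrane glycoprotein that is abundant in phagocytes, and C1QA and C1QB are chains of the complement protein C1q, which macrophages make in large amounts.

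Levels are given as the deposited FPKM, which divide fragments by transcript length and by a scaled library size. Reads recovered from them numbered 17188287 to 25211278 per library, and the members rested on 3 reads (*Timd4* in MLN0128 replicate 2) to 3890 reads (*Cd5l* in everolimus replicate 2). The deposited scaling differed between tissues, with a factor of 0.585 to 0.595 in normal livers and 1.10 to 1.37 in tumors. *Alb*, the hepatocyte gene for serum albumin, averaged 66600 FPKM in normal livers and 1524 FPKM in vehicle-treated tumors. *Tsc2* was at 4.50 to 5.32 FPKM in normal livers and 2.01 to 3.96 FPKM in tumors, and *Rictor* at 1.65 to 2.57 and 1.05 to 2.21 FPKM. MLN0128 replicates 1 and 2 stood apart by *Xist* at 191 and 155 FPKM and 0 reads from 4 Y-linked genes, whereas the other 10 libraries had *Xist* at 0.0699 FPKM or less and 2223 to 5313 Y-linked reads. Results that rest on these libraries, or on everolimus replicate 2, which is described further on, are given with and without them.

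The first comparison asked how much of the macrophage program of normal liver was still found in vehicle-treated tumors. The Kupffer-restricted members except *Marco* fell sharply. The normal livers had *Clec4f* at 77.1, 82.2 and 83.6 FPKM and the vehicle-treated tumors at 7.88, 2.07 and 11.6 FPKM, an average of 81.0 ± 3.42 against 7.18 ± 4.80 FPKM (SD, n = 3 each). The groups did not come near each other, and the tumors kept 8.87% of the normal mean. *Vsig4* was at 30.7, 31.5 and 35.3 FPKM and at 2.26, 1.79 and 3.41 FPKM, so that 7.65% was left.

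*Cd5l* was the best preserved of the called Kupffer-restricted members. It was at 85.1, 110 and 94.1 FPKM in normal livers and at 27.6, 20.8 and 32.4 FPKM in vehicle-treated tumors, where 27.9% of the normal mean was kept. *Timd4* was a low transcript throughout, at 2.94, 5.76 and 3.84 FPKM in normal livers and 0.365, 0.327 and 0.415 FPKM in vehicle-treated tumors, the latter on 15 to 21 reads. On the log2(FPKM + 1) scale, which understates the change of low genes, the differences were −3.55 ± 0.54 (SE) for *Clec4f*, −3.29 ± 0.39 for *Vsig4*, −1.82 ± 0.35 for *Cd5l* and −1.88 ± 0.27 for *Timd4*. Their adjusted p-values were 0.00054, 9.4e-05, 0.0081 and 0.0012 by limma's treat test, which asks whether a difference exceeds a fold change of 1.5.

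*Marco* did not follow the other Kupffer-restricted members. Its values were 2.46, 7.16 and 0.747 FPKM in normal livers and 1.96, 1.82 and 3.37 FPKM in vehicle-treated tumors. The normal livers alone spanned the whole range of the vehicle group, and the log2 difference of −0.15 ± 0.55 did not pass either test (treat adjusted p = 1, moderated adjusted p = 0.83, limma). The sign of this difference rested on single normal livers, since it ran from −0.68 without replicate 3 to 0.43 without replicate 2.

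**Figure D1:**
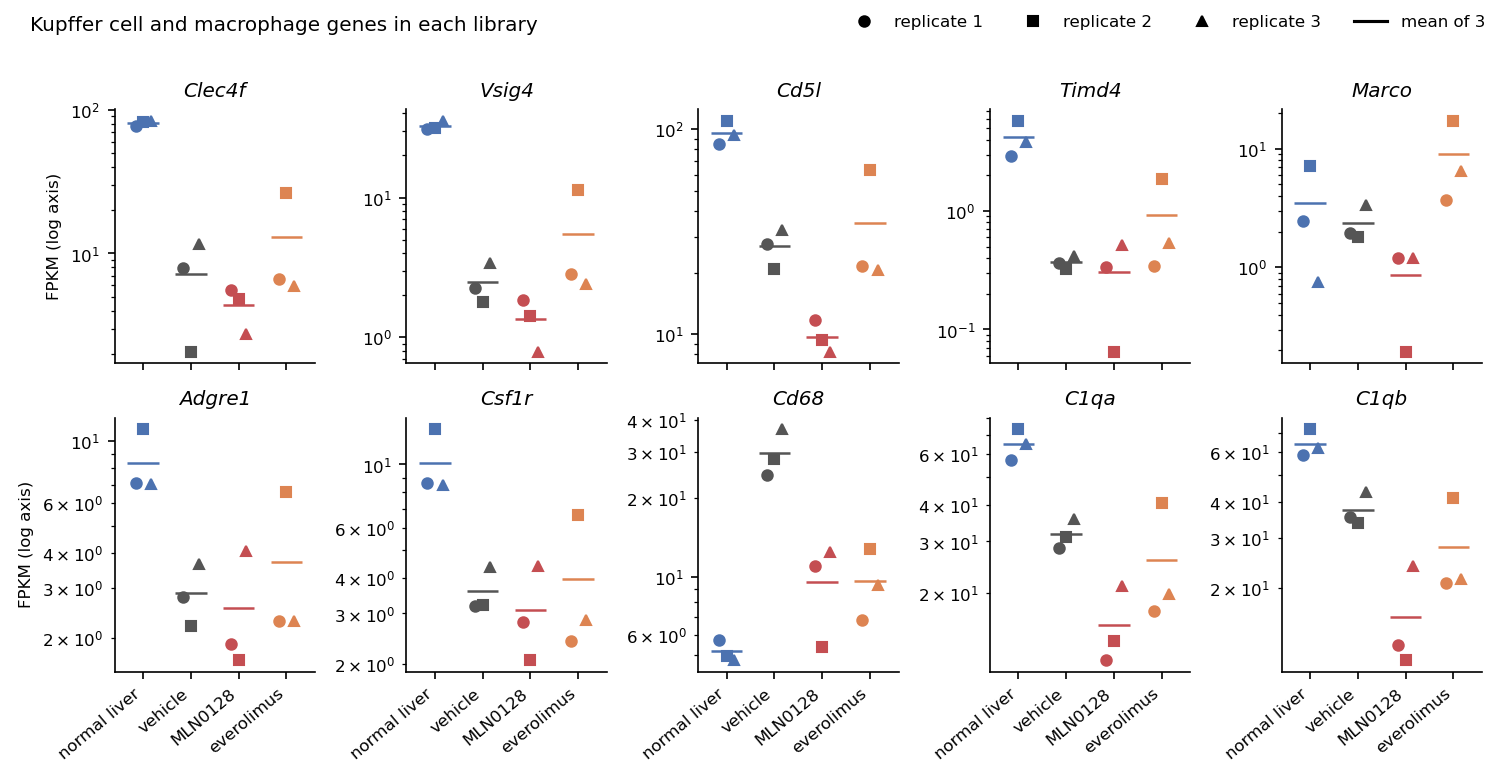
FPKM of the 10 members (log axis, a separate range per gene) in the 12 libraries, grouped as normal liver, vehicle, MLN0128 and everolimus, with a symbol per replicate number and a line at the mean of 3. *Clec4f* lies at 77.1 to 83.6 FPKM in normal livers and at 2.07 to 26.2 FPKM in the 9 tumors, whereas *Cd68* is highest in the vehicle-treated tumors, at 24.6 to 36.8 FPKM.

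The general macrophage members were lower by a smaller amount, and *Cd68* went the other way. *Adgre1* was at 7.07, 11 and 7.04 FPKM in normal livers and at 2.80, 2.20 and 3.67 FPKM in vehicle-treated tumors. *Csf1r* was at 8.58, 13.3 and 8.49 FPKM and at 3.19, 3.22 and 4.38 FPKM. The tumors kept 34.5% and 35.5% of the normal means of these genes, and the groups did not overlap. The log2 differences of −1.26 ± 0.34 and −1.26 ± 0.30 missed treat at adjusted p = 0.097 and 0.068 but passed limma's moderated test, which asks only whether a difference exists, at adjusted p = 0.0057 and 0.0028.

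Both C1q genes were lower, *C1qa* by the larger share. *C1qa* was at 57.5, 73.2 and 65.2 FPKM in normal livers and at 28.4, 31.0 and 35.9 FPKM in vehicle-treated tumors, with 48.6% kept. *C1qb* was at 58.6, 72.4 and 61.9 FPKM and at 35.6, 33.9 and 43.4 FPKM, with 58.5% kept. Both groups were again separate, and the log2 differences of −1.02 ± 0.28 and −0.76 ± 0.29 passed the moderated test (adjusted p = 0.0071 and 0.035) and not treat (0.20 and 0.58). The *C1qb* call was lost when any 1 normal liver, or vehicle replicate 1 or 2, was left out, which gave 7 members lower by the moderated test in place of 8.

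*Cd68* rose 5.77-fold. It was at 5.75, 4.98 and 4.80 FPKM in normal livers and at 24.6, 28.2 and 36.8 FPKM in vehicle-treated tumors, a log2 difference of 2.31 ± 0.27 (treat adjusted p = 0.00018). Every tumor of the vehicle group lay above every normal liver. Which cells carried the *Cd68* RNA was not tested.

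Counted together, treat called 4 of the 10 members lower and 1 higher in vehicle-treated tumors, where 16.9% of all tested genes were called lower and 15.9% higher. The moderated test called 8 lower and 1 higher (33.0% and 36.0% of all genes), and 8 members had all 3 tumors below all 3 normal livers, as did 35.1% of all genes, while 1 had all tumors above, as did 39.0%. Their median log2 difference was −1.88 for the Kupffer-restricted members and −1.02 for the general members, beside 0.06 over all tested genes. The distance from normal liver depended on the scaling between libraries. When the deposited scaling was replaced by plain library totals, the median of all genes moved to 0.62, *Clec4f* (−2.65), *Vsig4* (−2.43), *Timd4* (−1.26) and *Cd68* (3.08) were still called, *Cd5l* (−0.90) was not, and *Marco* (0.45) and *C1qb* (0.16) changed sign. With FPKM rescaled to equal sums that median was 0.80, *C1qa* (0.16) changed sign as well, and of the lower members *Clec4f* (−2.42) and *Vsig4* (−2.22) were called and *Timd4* (−1.15) was not. Over all 14397 tested genes, plain totals gave 1124 called lower and 5195 higher, and equal sums gave 917 and 6154. Relative to the median of all genes, *C1qa* and *C1qb* were at −0.72 and −0.47 with plain totals and at −0.64 and −0.39 with equal sums, and *Clec4f* was at −3.28 and −3.22.

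Hepatocyte, endothelial, stellate and erythroid transcripts differed between the same groups. The summed level of 8 hepatocyte genes was 102614 to 117244 FPKM in normal livers and 4258 to 6620 FPKM in vehicle-treated tumors, and that of 8 endothelial genes was 76.6 to 91.7 and 15.5 to 22.5 FPKM. Their part in the member differences was not tested.

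Ratios of 2 members within a library do not depend on the scaling, and some varied far less than others. The ratio of *Adgre1* to *Csf1r* was 0.682 to 0.997 in all 12 libraries, and that of *C1qa* to *C1qb* was 0.798 to 1.23. The latter was 0.981 to 1.05 in normal livers and 0.798 to 0.914 in vehicle-treated tumors, a small shift without overlap. *Clec4f* over *Csf1r* was 6.18 to 9.85 in normal livers and 0.643 to 2.65 in vehicle-treated tumors, with no overlap. *Cd68* over *Csf1r* was 0.374 to 0.670 in normal livers, 7.71 to 8.76 in vehicle-treated tumors, 2.61 to 3.93 under MLN0128 and 1.93 to 3.28 under everolimus. The lowest vehicle-treated tumor thus exceeded every drug-treated tumor, and every drug-treated tumor exceeded every normal liver.

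*Vsig4* tracked *Clec4f* in most libraries. Its ratio to *Clec4f* was 0.383 to 0.422 in normal livers and 0.285 to 0.431 in 8 of the 9 tumors, the exception being vehicle replicate 2 at 0.865, where *Clec4f* had its lowest value of 2.07 FPKM. *Cd5l* over *Clec4f* was 1.10 to 1.34 in normal livers, 1.92 to 3.503 in 8 of the tumors and 10.05 in vehicle replicate 2. *Marco* over *Clec4f* was 0.00894 to 0.0871 in normal livers, 0.249 to 0.879 under vehicle, 0.0401 to 0.430 under MLN0128 and 0.550 to 1.08 under everolimus. Both ratios were higher in every tumor than in every normal liver, except that of *Marco* in MLN0128 replicate 2, which lay within the normal range.

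**Figure D2:**
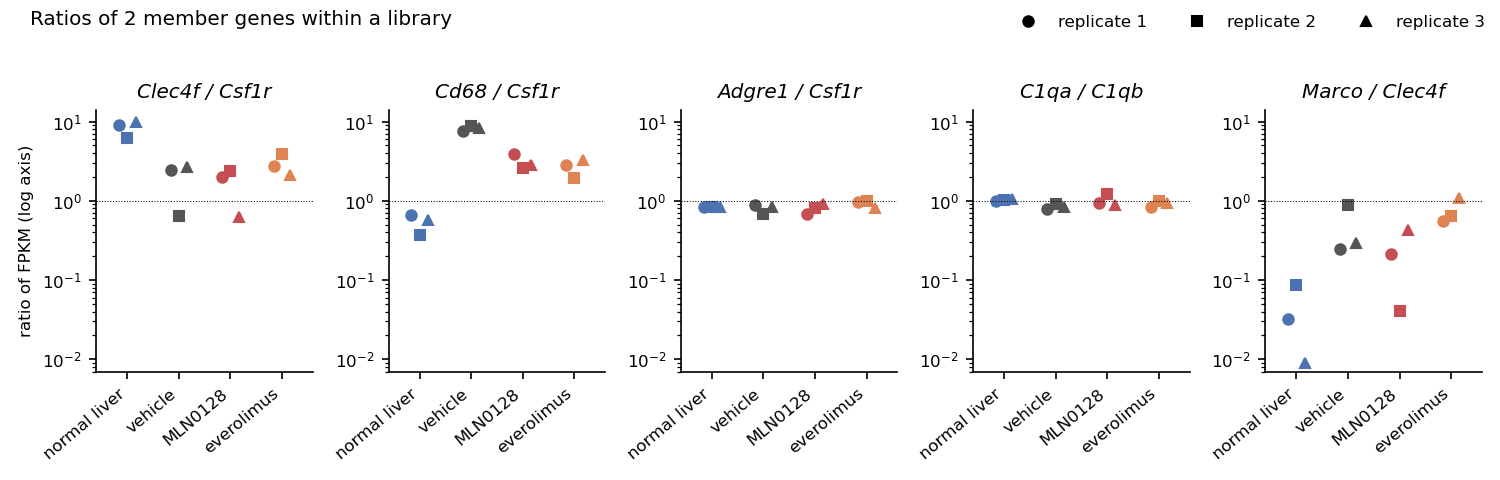
Ratios of FPKM of 2 members within each library (shared log axis), by group, with a symbol per replicate number and a dotted line at 1. *Adgre1* over *Csf1r* and *C1qa* over *C1qb* stay near 1 in all 12 libraries, *Clec4f* over *Csf1r* is highest in normal livers, and *Cd68* over *Csf1r* is 7.71 to 8.76 in vehicle-treated tumors and below 4 elsewhere.

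The mean log2(FPKM + 1) of the 5 Kupffer-restricted members minus that of the 5 general members gave a single value per library. It was 0.18 ± 0.12 in normal livers (SD, n = 3), −1.56 ± 0.26 under vehicle, −1.37 ± 0.53 under MLN0128 and −0.45 ± 0.33 under everolimus. Everolimus replicate 2 was at −0.07, and without it the everolimus mean was −0.64. All 9 tumors lay between −1.99 and −0.07, below all normal livers at 0.08 to 0.31. Without *Cd68* among the general members the means were −0.23, −1.30, −1.29 and −0.47, so the sign in normal liver turned, and everolimus replicate 2 at −0.15 lay just above the normal livers at −0.32 to −0.16. These are descriptions with no test, since the members were chosen with earlier results of these data known.

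Further genes known from Kupffer cells were mostly lower too, and those known from macrophages in general gave a mixed picture. These lists were chosen with earlier results of the data known, so they are no independent check. Which cells carried their genes was not tested. Of 8 tested further Kupffer cell genes, 6 fell in vehicle-treated tumors and 0 rose (median −1.60), among them *Fcna*, a ficolin of the lectin complement pathway (43.2 to 4.72 FPKM, log2 difference −2.96), the hemoglobin scavenger receptor *Cd163* (−1.92), the transcriptional regulator *Id3* (−1.82) and *Clec1b* (−1.63). Over all tested genes treat called 16.9% lower and 15.9% higher. With plain library totals 3 of the 8 were called lower, where 1124 of all 14397 tested genes were lower and 5195 higher. Of 18 further macrophage genes, 4 fell and 0 rose by treat, a count to be read beside those shares. Among the 4 were the mannose receptor *Mrc1* (−2.15), the scavenger receptor *Msr1* (−1.40) and *Aif1* (−1.21). The median of that list was −0.33 and turned to 0.34 with plain library totals, where 2 were called lower and 1 higher.

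Genes known from tumor-infiltrating and lipid-laden macrophages mostly changed in the direction of *Cd68*. Of 9 tested, 5 rose in vehicle-treated tumors and 1 fell (median 1.34), a count that was the same with plain library totals. Over all tested genes treat called 15.9% higher and 16.9% lower, and with plain totals 5195 and 1124 of 14397. *Lgals3*, which encodes galectin-3, rose from 3.71 to 49.7 FPKM on average (log2 difference 3.41), and the lysosomal glycoprotein gene *Gpnmb* was at 0 to 0.0294 FPKM in normal livers and 4.45 to 8.21 FPKM in vehicle-treated tumors (2.86). The tetraspanin gene *Cd9* rose as well (2.20), and the member that fell was *Arg1* (−4.14), an enzyme of the urea cycle that hepatocytes express strongly and that was at 1420 to 1780 FPKM in normal liver. These genes are also expressed by other cells, and which cells carried them was not tested.

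Lysosomal genes other than *Cd68* were read as a comparison for that member. Of 10 tested, 4 rose and 2 fell in vehicle-treated tumors, with the cathepsin gene *Ctsl* (1.60) and the galactosidase gene *Gla* (1.59) rising and *Lamp2* (−1.86) and *Scarb2* (−1.34) falling. Over all tested genes 15.9% were called higher and 16.9% lower. Plain library totals gave 7 higher and 1 lower in the list, and 5195 and 1124 over all 14397 tested genes. The *Cd68* difference of 2.31 was larger than that of any of these 10 genes.

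Of the growth factors and niche signals that maintain Kupffer cells, 3 of 12 tested genes fell and 1 rose. Over all tested genes treat called 16.9% lower and 15.9% higher. *Gdf2* and *Bmp10*, ligands made in the liver that act on endothelial cells and Kupffer cells, fell (−2.93 and −1.26), as did *Nr1h3* (−2.03), which encodes LXRα, a nuclear receptor that Kupffer cells need. *Notch1* rose (1.15), and the median of the list was −0.29, which turned to 0.17 with plain library totals, where 1 was called lower and 2 higher. That scaling called 1124 of all 14397 tested genes lower and 5195 higher. *Csf1* itself was at 1.96 to 2.55 FPKM in normal livers and 0.566 to 1.18 FPKM in vehicle-treated tumors and was not called by treat, a gene singled out after its values were seen. Among 8 efferocytosis genes, which serve the uptake of dying cells, the bridging protein gene *Mfge8* rose (1.93) and the scavenger receptor gene *Stab1* fell (−1.004), the latter not called with plain library totals.

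Other cell types were measured in the same libraries, where treat called 16.9% of all tested genes lower and 15.9% higher. By treat, 5 of 8 endothelial genes fell, led by *Clec4g* (−4.26), *Fcgr2b* (−3.06), *Oit3* (−2.43) and *Kdr* (−1.60). Of 7 stellate cell genes 4 fell, among them *Dcn* (−3.35), *Lrat* (−3.12) and *Reln* (−1.81), and *Col1a1* rose (2.98). Of 6 erythroid genes 4 fell (*Alas2* −5.03, *Hbb-bs* −2.63, *Hba-a1* −2.35, *Klf1* −1.65), and of 8 hepatocyte genes 7 fell (*Cyp2e1* −8.93, *Serpina1c* −6.66, *Alb* −5.50, *Fabp1* −5.11). The lists for monocytes, dendritic cells, neutrophils and lymphocytes had 12 genes tested in all and 0 called by limma's treat. Of these, 3 dendritic cell genes were at an unadjusted p under 0.05 and were called by the moderated test. Over all 14397 tested genes, 10271 were at such a p, and the moderated test called 4753 lower and 5176 higher. Levels in these lists were low: the summed FPKM of 9 monocyte genes was 8.10 to 18.0 over the 12 libraries, that of 4 neutrophil genes 1.03 to 17.9 and that of 8 lymphocyte genes 0.531 to 2.90.

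**Figure D3:**
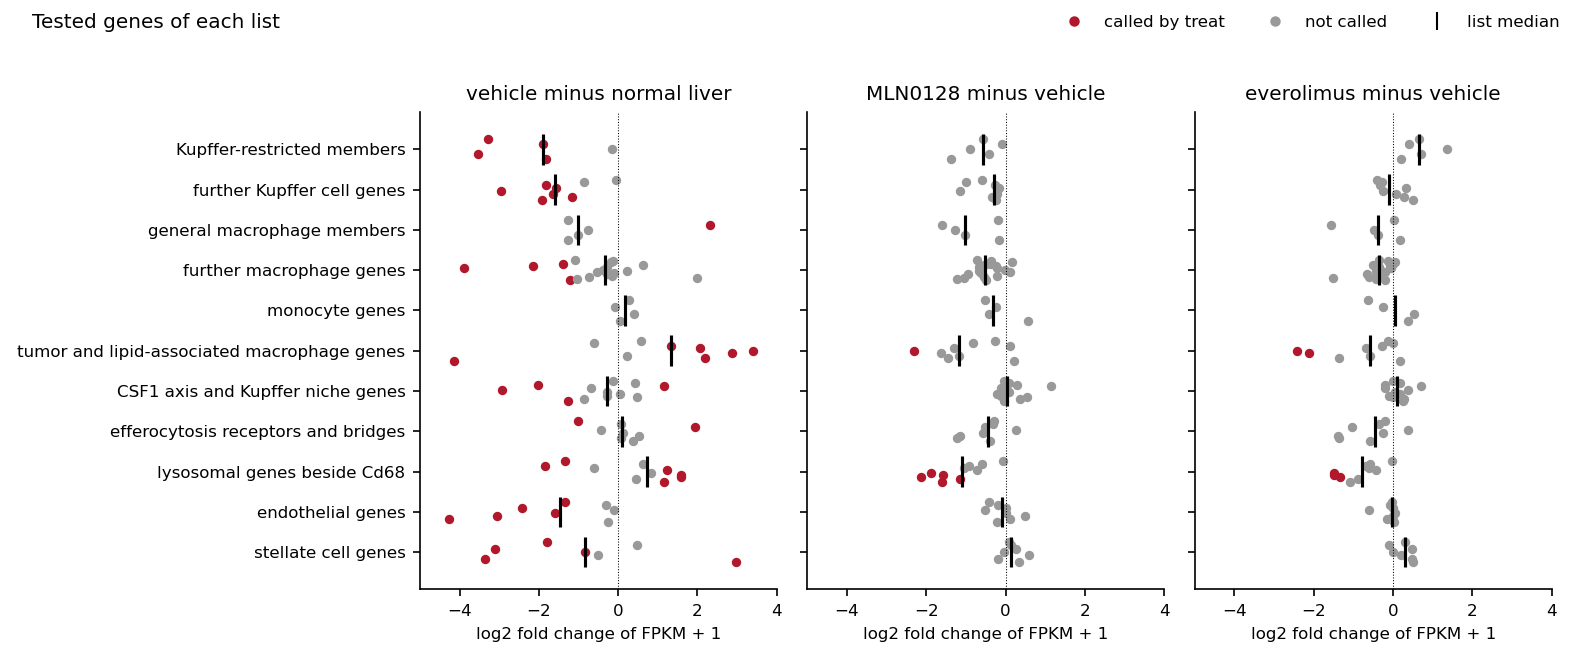
Log2 fold change of FPKM + 1 for each tested gene (points, red where treat called it) in 11 lists, with the list median as a black bar, for vehicle against normal liver and for each drug against vehicle. Kupffer-restricted genes lie left of 0 in vehicle-treated tumors and tumor and lipid-associated macrophage genes mostly right of it, and in the drug comparisons the red points are confined to the latter list and to the lysosomal list.

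The promoter sequences of some members are shown because *Vsig4* and *Clec4f* fell together while *Cd68* rose, and because PU.1, the factor that sets up macrophage gene expression, is known for binding purine-rich sites with the core GAGGAA. RefSeq gave a window of the 250 bases before the transcription start for 7 of the 10 members (GRCm38.p6). The windows of *Vsig4* (chrX:96293439-96293688, minus strand), *Clec4f* (chr6:83656117-83656366, minus strand) and *Cd68* (chr11:69666171-69666420, minus strand) read 5′ to 3′ along the gene as follows, with GAGGAA in capitals.
Vsig4: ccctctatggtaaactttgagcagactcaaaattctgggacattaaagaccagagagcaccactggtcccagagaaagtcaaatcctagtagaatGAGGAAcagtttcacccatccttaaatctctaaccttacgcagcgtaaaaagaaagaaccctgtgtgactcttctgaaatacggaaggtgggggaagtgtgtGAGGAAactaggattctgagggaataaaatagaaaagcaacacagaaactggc
Clec4f: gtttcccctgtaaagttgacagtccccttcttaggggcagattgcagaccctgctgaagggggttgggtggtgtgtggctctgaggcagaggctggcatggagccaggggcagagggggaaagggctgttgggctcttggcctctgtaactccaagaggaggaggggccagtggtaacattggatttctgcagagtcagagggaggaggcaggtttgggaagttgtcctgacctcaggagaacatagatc
Cd68: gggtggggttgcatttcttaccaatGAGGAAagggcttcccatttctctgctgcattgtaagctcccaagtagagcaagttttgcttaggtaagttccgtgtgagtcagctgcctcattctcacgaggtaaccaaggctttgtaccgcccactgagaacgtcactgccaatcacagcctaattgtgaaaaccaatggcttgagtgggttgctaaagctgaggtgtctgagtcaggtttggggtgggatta
On either strand, GAGGAA was found in 5 of the 7 windows and in 23.3% of 32851 RefSeq promoter windows of the same length. *Vsig4* held it at 155 and 53 bases before the start and *Cd68* at 225 bases, and single matches lay 146 bases before the start of *Marco*, 30 bases before that of *C1qb* and, on the reverse strand, 66 bases before that of *Cd5l*. *Clec4f* and *Timd4* held none. The E-box CACGTG was found in 0 of the 7 windows and in 6.02% of all windows, and the longer form GTCACGTG, which is known from lysosomal gene promoters and contains that E-box, in 0 and in 1.85%. Windows with and without GAGGAA were found among the members that fell, and a match is a run of letters and not a measured binding site.

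The second question was whether either mTOR inhibitor changed these genes in tumors. The comparisons share their 3 vehicle-treated controls. No member was called by treat in either comparison. Under MLN0128 all 10 log2 differences were negative, and limma's moderated test called 4 members lower (*Cd68*, *Cd5l*, *C1qb* and *C1qa*) and 0 higher, where 17.1% and 14.9% of all genes were called. By treat 1.65% of all genes were called lower and 0.479% higher. An unadjusted p under 0.05 by the moderated test was found for 4 members and for 6181 of the 14397 tested genes. Limma's voom on the recovered reads called 1 member lower by treat, *Cd68* (adjusted p = 0.024), where 483 of 14305 genes were called lower and 285 higher. For 5 members, *Marco* beside those 4, the MLN0128 and vehicle ranges were separate with MLN0128 lower, and for 0 with MLN0128 higher, against 23.4% and 22.1% of all genes.

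*Cd68* was at 24.6, 28.2 and 36.8 FPKM under vehicle, at 11, 5.37 and 12.4 FPKM under MLN0128 and at 6.82, 12.8 and 9.32 FPKM under everolimus. All 6 drug-treated tumors lay below all 3 vehicle-treated tumors. The means were 3.11-fold and 3.10-fold lower, with log2 differences of −1.60 ± 0.27 (moderated adjusted p = 0.0016, treat 0.067) for MLN0128 and −1.56 ± 0.27 (0.0060 and 0.20) for everolimus. With either drug *Cd68* remained above normal liver by the moderated test (log2 difference 0.71 and 0.75, adjusted p = 0.035 and 0.028), although MLN0128 replicate 2 lay within the normal range, and neither difference passed treat. The moderated calls were lost with voom for both drugs. For MLN0128 they were also lost without any 1 normal liver or without MLN0128 replicate 1 or 3, and for everolimus without normal liver replicate 2 or 3 or everolimus replicate 2 or 3.

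*Cd5l* was the only Kupffer-restricted member that the moderated test called under MLN0128. It was at 27.6, 20.8 and 32.4 FPKM under vehicle and at 11.7, 9.33 and 8.21 FPKM under MLN0128, a log2 difference of −1.37 ± 0.35 (moderated adjusted p = 0.011). *C1qa* was at 11.7, 13.6 and 21 FPKM and *C1qb* at 12.5, 11.1 and 23.8 FPKM under MLN0128, below the vehicle values of 28.4 to 35.9 and 33.9 to 43.4 FPKM in every library. Their log2 differences were −1.03 ± 0.28 (moderated adjusted p = 0.017) and −1.27 ± 0.29 (0.0068). The *C1qa* call was lost without MLN0128 replicate 1 or without vehicle replicate 3.

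The remaining members passed neither test under MLN0128. *Clec4f* was at 5.60, 4.86 and 2.77 FPKM under MLN0128 (log2 difference −0.41 ± 0.54, moderated adjusted p = 0.60) and *Vsig4* at 1.85, 1.42 and 0.789 FPKM (−0.57 ± 0.39, 0.30). *Timd4* was at 0.340, 0.0648 and 0.519 FPKM, on 21, 3 and 27 reads (−0.08 ± 0.27, 0.84). *Marco* was at 1.19, 0.195 and 1.19 FPKM, below all 3 vehicle-treated tumors but not past either test (−0.89 ± 0.55, adjusted p = 0.24). *Adgre1* at 1.91, 1.67 and 4.07 FPKM and *Csf1r* at 2.80, 2.06 and 4.42 FPKM overlapped the vehicle group, with log2 differences of −0.18 and −0.20.

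MLN0128 replicate 3 differed in direction between members. Of its group it had the lowest *Clec4f*, *Vsig4* and *Cd5l* and the highest *Adgre1*, *Csf1r*, *Cd68*, *C1qa* and *C1qb*, while the Kupffer-restricted *Timd4* was also highest there and *Marco* tied with replicate 1, and its Kupffer-restricted minus general value of −1.99 was the lowest of all libraries. It was also the only MLN0128 library with Y-linked reads, so in this group that difference and the replicate cannot be told apart. With replicates 1 and 2 left out, the lone MLN0128 library, assumed to vary like the other groups, left 1 member called lower by the moderated test, *Cd68* (log2 difference −1.18, adjusted p = 0.032), *Cd5l* was at −1.58 (0.075), *C1qa* at −0.57 (0.36) and *C1qb* at −0.63 (0.24), and *Adgre1* (0.40), *Csf1r* (0.25) and *Timd4* (0.15) changed sign. Without replicate 3, *Cd68* (−1.80) and *C1qb* (−1.59) were called by treat (adjusted p = 0.033 and 0.046).

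Under everolimus the Kupffer-restricted members averaged higher than under vehicle and none passed a test. The moderated test called 1 member lower, *Cd68*, and 0 higher (6.05% and 3.78% of all genes), and treat called 0 (0.570% and 0.0347%). An unadjusted p under 0.05 was found for 2 members and for 3865 of the 14397 tested genes. By treat, voom called 0 members, where 156 of 14305 genes were called lower and 14 higher. All everolimus libraries lay above all vehicle libraries for 1 member, *Marco*, and below them for 1, *Cd68*, as for 17.6% and 14.8% of all genes. *Marco* was at 3.66, 17.1 and 6.46 FPKM, above all 3 vehicle-treated tumors at 1.82 to 3.37 FPKM, with a log2 difference of 1.37 ± 0.55 (moderated adjusted p = 0.14). *Clec4f* was at 6.66, 26.2 and 5.96 FPKM (0.69 ± 0.54, 0.45), *Vsig4* at 2.82, 11.3 and 2.41 FPKM (0.67 ± 0.39, 0.31), *Cd5l* at 21.6, 63.1 and 20.6 FPKM (0.20 ± 0.35, 0.77) and *Timd4* at 0.341, 1.88 and 0.536 FPKM (0.40 ± 0.27, 0.37). In each of these genes replicate 2 was far above the other everolimus libraries, which apart from those of *Marco* lay within or close to the vehicle range. *Adgre1* (2.29, 6.61 and 2.29 FPKM), *Csf1r* (2.40, 6.63 and 2.84), *C1qa* (17.3, 40.8 and 19.8) and *C1qb* (20.7, 41.5 and 21.4) were also highest in replicate 2, with log2 differences between −0.49 and 0.18. Replicates 1 and 3 lay within the vehicle range for *Adgre1*. They lay below it for *Csf1r* (vehicle 3.19 to 4.38 FPKM), *C1qa* (28.4 to 35.9) and *C1qb* (33.9 to 43.4).

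**Figure D4:**
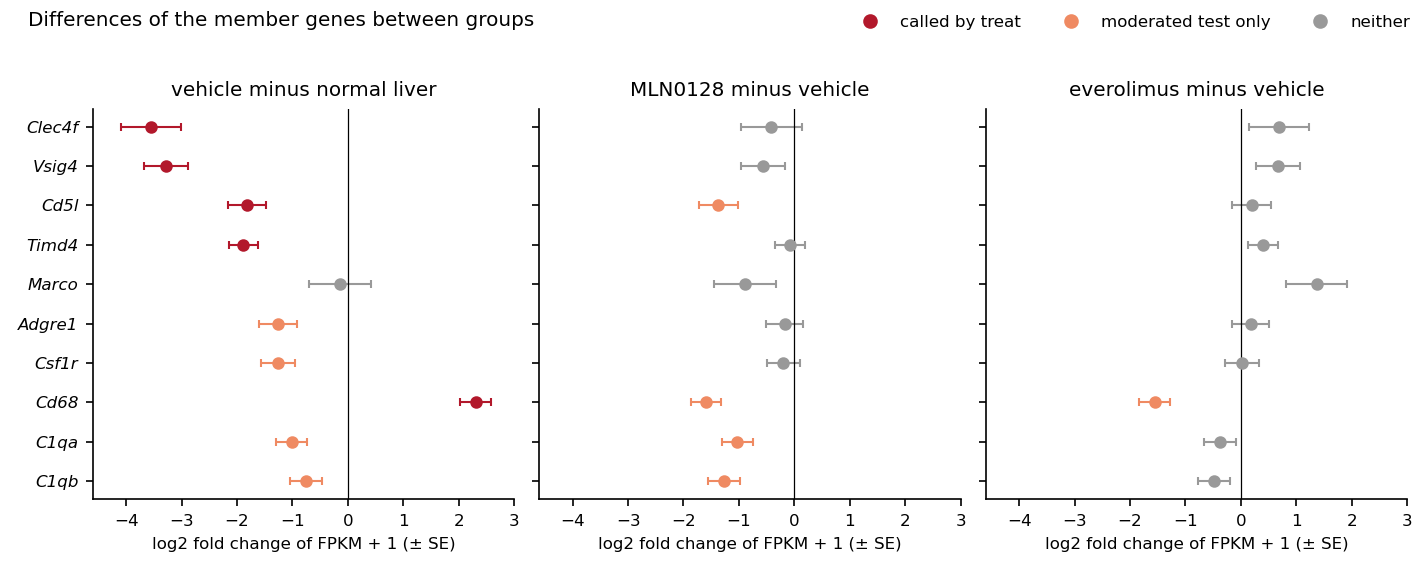
Log2 fold change of FPKM + 1 with its SE for each member in vehicle against normal liver and in each drug against vehicle, red where limma's treat called it, orange where only the moderated test did and gray otherwise. In the first panel 4 members are called lower and *Cd68* higher, and *Cd68* is the only member past the moderated test in both drug panels.

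Everolimus replicate 2 was the highest of its group for 10 of 10 members, and for 31.4% of all tested genes. It was also the highest of all 9 tumors for 8 of 10 members, a count for which no share over all genes was taken. It exceeded the mean of the other everolimus libraries 4.15-fold for *Clec4f*, 4.32-fold for *Vsig4*, 4.29-fold for *Timd4*, 3.38-fold for *Marco* and 2.99-fold for *Cd5l*. The general members were raised less, from 1.59-fold (*Cd68*) to 2.89-fold (*Adgre1*), and the median over all tested genes was 0.946. Other cell types were higher in that library too: the median ratio was 2.003 for 8 endothelial genes, 1.59 for 7 stellate cell genes and 1.28 for 8 hepatocyte genes, whose summed level was 8421 FPKM against 3874 and 3605 FPKM, with *Alb* at 4860 against 1320 and 851 FPKM. The part of other tissue in this library was not tested. Without it, the everolimus log2 differences fell to 0.06 for *Clec4f*, 0.08 for *Vsig4* and 0.07 for *Timd4*, *Cd5l* (−0.32), *Adgre1* (−0.22) and *Csf1r* (−0.34) turned negative, *Marco* was at 0.83 and *Cd68* at −1.76 (moderated adjusted p = 0.0052), and *C1qa* (−0.74) was called lower by the moderated test (0.049).

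**Figure D5:**
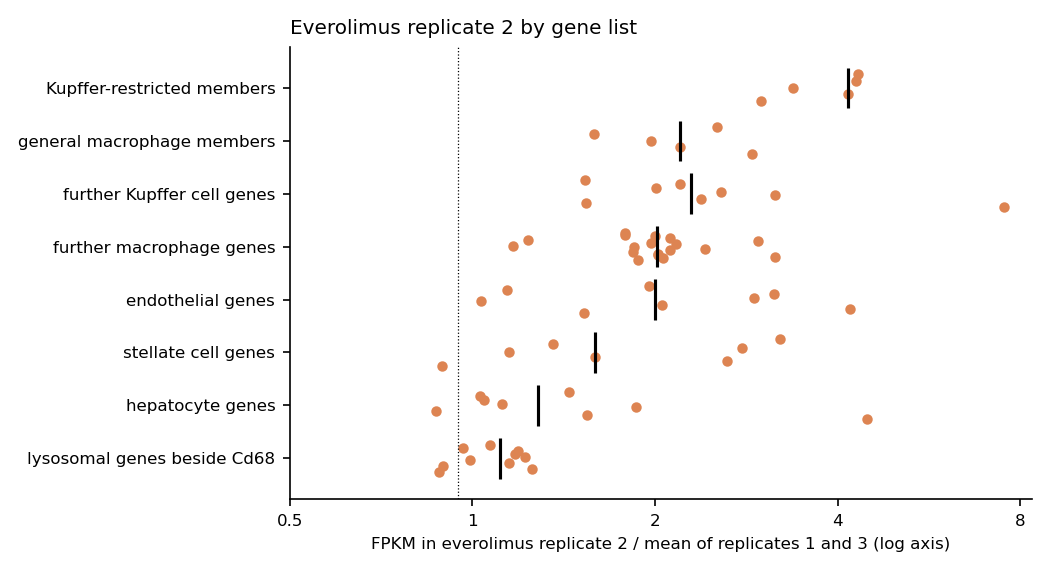
Ratio of FPKM in everolimus replicate 2 to the mean of everolimus replicates 1 and 3 (log axis) for each tested gene of 8 lists, with list medians as black bars and the median of all tested genes (0.946) dotted. The Kupffer-restricted members lie between 2.99 and 4.32, above the general members at 1.59 to 2.89, and lysosomal genes lie close to 1.

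A single library also ranked first in the vehicle group, where replicate 3 was the highest for 10 of 10 members (31.4% of all genes). The stronger rise of the Kupffer-restricted members was not shared by all of them there. *Timd4* was at 0.415 FPKM against 0.365 and 0.327 FPKM, and *Adgre1* at 3.67 against 2.80 and 2.20 FPKM. Its *Clec4f* of 11.6 FPKM compared with 7.88 and 2.07 FPKM, its *C1qb* of 43.4 FPKM with 35.6 and 33.9 FPKM. The 10 members are therefore not independent readings of a tumor.

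Beside the members, the drug comparisons called genes in 2 of the 14 further lists. Of 10 lysosomal genes, treat called 5 lower under MLN0128 (median −1.10), including *Ctsl* (−2.14), *Hexa* (−1.88), *Ctsb* (−1.62) and *Gla* (−1.59), and 3 under everolimus (median −0.79), *Hexa* (−1.49), *Gla* (−1.48) and *Ctsl* (−1.34). Over all 14397 tested genes treat called 237 and 82 lower. With plain library totals the list counts were 4 and 3, where 188 and 86 of the 14397 tested genes were called lower. Of 9 tumor and lipid-associated macrophage genes, *Lgals3* fell under both drugs (−2.31 and −2.41) and *Gpnmb* under everolimus (−2.11). The other 12 lists had 87 genes tested and 0 called by limma's treat under either drug. Of the 87, 30 and 15 were at an unadjusted p under 0.05, as were 6181 and 3865 of all 14397 tested genes. Among the 87 genes the moderated test called 4 higher and 13 lower under MLN0128 and 4 higher and 4 lower under everolimus.

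When the drugs were compared with each other, MLN0128-treated tumors had the lower mean for all 10 members. Without everolimus replicate 2 this held for 7, and *Adgre1*, *Csf1r* and *Cd68* had the higher mean under MLN0128. Treat called 0 members (0.0347% of all genes were called lower and 0.00695% higher), and voom called 0 by treat (11 and 2 of 14305 genes). An unadjusted p under 0.05 was found for 5 members and for 3883 of the 14397 tested genes. Limma's moderated test called 2 members lower and 0 higher, where 5.54% and 3.99% of all genes were called. These were *Cd5l* (log2 difference −1.56 ± 0.35, adjusted p = 0.020) and *Marco* (−2.26 ± 0.55, 0.029), and for both, each MLN0128 library lay below each everolimus library. The same held for *Clec4f* and *Vsig4*, 4 members in all, with 0 the other way (15.2% and 12.5% of all genes). Leaving out MLN0128 replicate 1 left 0 members called, and leaving out MLN0128 replicate 2 or everolimus replicate 3 left *Cd5l* alone. Without everolimus replicate 2, *Cd5l* was at −1.05 (0.014) and *Marco* at −1.72 (0.065), and without MLN0128 replicates 1 and 2 they were at −1.77 (0.12) and −1.97 (0.24). *Cd68* was the member closest to equality, at 9.59 ± 3.72 and 9.65 ± 3.00 FPKM (SD, n = 3).

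*Clec4f*, *Vsig4*, *Cd5l* and *Timd4* stayed below normal liver in both drug groups. Against normal liver, treat called 8 members lower and 0 higher under MLN0128 (20.2% and 17.1% of all genes) and 5 lower and 0 higher under everolimus (18.4% and 16.9%), and the moderated test called 8 lower in both and *Cd68* higher in both, the latter with the losses given above (35.5% and 37.1%, and 34.3% and 35.9%). Under either drug 8 members lay below all normal livers in all 3 libraries (36.3% and 35.4% of all genes), and *Cd68* lay above them in all 3 under everolimus and in 2 of 3 under MLN0128 (38.5% and 38.8% of all genes lay above in all 3). *Clec4f* was 18.4-fold lower under MLN0128 and 6.26-fold lower under everolimus, and *Vsig4* was 24.0-fold and 5.90-fold lower. *Cd5l* was 9.89-fold and 2.75-fold lower. The everolimus values rested on replicate 2: with it, *Clec4f*, *Vsig4* and *Cd5l* were at 16.0%, 17.0% and 36.4% of the normal mean, and without it at 7.79%, 8.05% and 21.9%. Without everolimus replicate 2, treat called 8 members lower in that group, and without replicate 1 it called 2, *Clec4f* and *Vsig4*. These counts depended on the scaling: with plain library totals 4 members were called lower under MLN0128 and 2 under everolimus, and with equal sums 3 and 0. The counts over all 14397 tested genes moved too. They were 2902 and 2646 lower with the deposited scaling, 1160 and 1158 with plain totals and 879 and 927 with equal sums. Without MLN0128 replicates 1 and 2 the MLN0128 count was 5. *Marco* was not called in either comparison, with means of 0.858 and 9.07 FPKM against 3.46 FPKM. Treat called it higher under everolimus with plain totals (log2 difference 1.86, adjusted p = 0.046) and with equal sums (2.06, 0.031), and the moderated test did so without everolimus replicate 1 or normal liver replicate 2. With those scalings treat called 5193 and 5956 of the 14397 tested genes higher. The moderated test called *Marco* lower under MLN0128 without normal liver replicate 3.

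In order of mean level, the groups stood as normal liver, everolimus, vehicle and MLN0128 for *Clec4f*, *Vsig4*, *Cd5l*, *Timd4*, *Adgre1* and *Csf1r*, and as normal liver, vehicle, everolimus and MLN0128 for *C1qa* and *C1qb*. Among the tumor groups, the only neighbors in either of these orders that a test told apart were vehicle and MLN0128 for *Cd5l*, by the moderated test. For *Cd68* the order was vehicle, everolimus, MLN0128 and normal liver, and for *Marco* everolimus, normal liver, vehicle and MLN0128. The moderated test also told vehicle and everolimus apart for *Cd68* (adjusted p = 0.0060). Several of these orders rested on everolimus replicate 2. Without it the everolimus means of *Clec4f* (6.31 FPKM) and *Cd5l* (21.1 FPKM) lay below vehicle, and those of *Adgre1* (2.29 FPKM) and *Csf1r* (2.62 FPKM) lay below both vehicle and MLN0128. That of *Cd68* (8.07 FPKM) then lay below MLN0128.

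The genes whose levels most resembled those of the members over the 12 libraries were found by Pearson's r to the mean standardized profile, a description in which normal livers and tumors form separate clusters. For the Kupffer-restricted members these were *Fgl1* (0.96), *Cd163* (0.96), *Cfp*, *Hlx*, *Gprc5c*, *Folr2*, *Fadd*, *Orm1*, *Sod3* and *Etv5* (0.95). For the general members they included *Sdc3* (0.98), *C1qc* (0.96), *Clu*, *Wfs1*, *Lair1*, *Gnai2*, *Esyt1*, *Mpeg1* and *6430548M08Rik* (0.95). *C1qc*, the third chain of C1q, was at 31.8 to 43.7 FPKM in normal livers, 16.6 to 20.9 under vehicle, 5.86 to 10.3 under MLN0128 and 10.3 to 21.3 under everolimus.

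In the GRCm38 annotation (GENCODE M21) the members lie at separate places apart from the C1q pair, *C1qa* (ENSMUSG00000036887, chr4:136895917-136898803) and *C1qb* (ENSMUSG00000036905, chr4:136880129-136886187), which are neighbors on the minus strand. *Clec4f* is ENSMUSG00000014542 (chr6:83644542-83656187), *Vsig4* ENSMUSG00000044206 (chrX:96247203-96293438), *Cd5l* ENSMUSG00000015854 (chr3:87357881-87371073), *Timd4* ENSMUSG00000055546 (chr11:46810800-46844332) and *Marco* ENSMUSG00000026390 (chr1:120474538-120505024). *Adgre1* is ENSMUSG00000004730 (chr17:57358691-57483527), *Cd68* ENSMUSG00000018774 (chr11:69664213-69666153) and *Csf1r* ENSMUSG00000024621 on chromosome 18. Values are over whole genes, all exons together.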

How the data were processed

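Members and gene lists were chosen with earlier results of these data known. The deposited values are FPKM that the authors made from reads counted per Ensembl gene, with symbols from org.Mm.eg.db, in libraries from Novogene. The submitters' processing notes name GRCm38 and FastQC 0.11.7, the labels describe polyA capture or rRNA removal, and the aligner and gene lengths were not given in the sources used here. The authors called genes with edgeR's glmTreat. The labels and methods give 3 weeks of dosing, which was used, whereas the study's results text gives 3 days for the sequenced tumors, and the sources do not settle which applied.

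Groups came from the labels. A gene was tested if 3 or more libraries reached 0.5 FPKM (14397 of 17007 genes), on log2(FPKM + 1) in 1 model of all 12 libraries (limma 3.58.1, R 4.3.3, intensity trend, 8 residual degrees of freedom). A gene was called at a Benjamini-Hochberg adjusted p under 0.05 over all tested genes by treat against a 1.5-fold change, with the moderated test beside it. Fits were tested on simulated data. All 10 members were named in every comparison, and from each further list up to 4 called genes with the largest log2 difference between vehicle and normal liver or between a drug and vehicle. For likeness, the 10 genes with the highest r to each set were taken. Some genes that these rules select are not reported here.

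FPKM multiplied by GENCODE M21 exon lengths fell within 0.1 of whole reads for 98.2% to 98.8% of values under 20 reads (20% by chance), which gave 17188287 to 25211278 reads per library for voom. *Timd4* rested on 3 to 138 reads and *Marco* on 8 to 997. Of the listed symbols, 16890 were in GENCODE M21, and 22 had been turned into dates. No pairing by replicate number was seen. Same-numbered libraries of different groups deviated together no more (r −0.29 to 0.15 over 18 pairs) than others (−0.29 to 0.40 over 36 pairs). Whether some shared a day or cage was not tested. Alternatives covered pseudocount, filter, scaling, test, libraries in the model, prior variance, replicate block and each library left out.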

Additional observations from a re-analysis of the deposited data

Results flagged for a closer look

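*Cd5l* and *Marco* were singled out because the responses to the drugs, taken against the same vehicle group, differed from each other by limma's moderated test. *Cd5l* averaged 26.9 FPKM under vehicle, 9.75 under MLN0128 and 35.1 under everolimus, and the difference between the drugs was −1.56 on the log2 scale (adjusted p = 0.020), lower in 3 of 3 MLN0128 libraries than in any everolimus library. *Marco* averaged 2.38, 0.858 and 9.07 FPKM, and the difference was −2.26 (adjusted p = 0.029), again with no overlap of libraries. Neither difference passed treat (adjusted p = 1). Everolimus replicate 2 carried much of the everolimus means: without it *Cd5l* averaged 21.1 FPKM, below vehicle, and *Marco* 5.06 FPKM, and the differences between the drugs were −1.05 (moderated adjusted p = 0.014) and −1.72 (0.065).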

How the results depend on the processing

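The deposited scaling and the choice of test moved the counts most. In vehicle-treated tumors against normal liver, 4 members were called lower, and 2 with equal FPKM sums, 8 by the moderated test with or without a 1.5-fold minimum and 7 with only those groups in the model. Under MLN0128 against vehicle the count of 0 became 1 with a pseudocount of 0.1, 1 with voom and 4 by the moderated test, and under everolimus it became 1 by the moderated test. Between the drugs the moderated test called 2. Against normal liver, 8 members were lower under MLN0128, and 3 with equal sums, 4 with plain totals and 5 without MLN0128 replicates 1 and 2, while *Cd68* was called higher (1 in place of 0) with equal sums, plain totals and the moderated test. Under everolimus the 5 lower members became 0, 2 and 8 with equal sums, plain totals and the moderated test, and 0 higher became 2, 2 and 1. Leaving out each library gave 4 to 6 lower for vehicle against normal liver, 0 to 2 for MLN0128 and 0 to 1 for everolimus against vehicle, and 6 to 8 and 2 to 8 for MLN0128 and everolimus against normal liver. Calls over all 14397 tested genes moved as well. Against normal liver, equal sums and plain totals gave 879 and 1160 lower under MLN0128 and 927 and 1158 under everolimus. They gave 7242 and 5898 higher under MLN0128 and 5956 and 5193 under everolimus. In vehicle-treated tumors, 917 were lower with equal sums. The causes of these shifts were not tested.

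Over 1560 alternative values for 60 member differences, 1431 kept direction and call, 39 lost the call, 64 gained it and 26 changed sign. Sign changes with scaling in vehicle against normal liver were *Marco* at 0.63 with equal sums and 0.45 with plain totals, *C1qa* at 0.16 with equal sums and *C1qb* at 0.415 and 0.16. With equal sums *Adgre1* was at 0.0002 under MLN0128 against vehicle. Between the drugs *Cd68* was at 0.19 with equal sums and 0.090 with plain totals. Without MLN0128 replicates 1 and 2, *Timd4* (0.15), *Adgre1* (0.40) and *Csf1r* (0.25) turned positive against vehicle, and *Adgre1* (0.22), *Csf1r* (0.23) and *Cd68* (0.37) against everolimus. With each library left out, MLN0128 against vehicle ran from −1.01 to 0.012 for *Clec4f* and from −0.20 to 0.060 for *Timd4*. Everolimus against vehicle ran from −0.32 to 0.47 for *Cd5l*, from −0.22 to 0.38 for *Adgre1* and from −0.34 to 0.25 for *Csf1r*. MLN0128 against everolimus ran from −0.64 to 0.049 for *Adgre1*, from −0.44 to 0.14 for *Csf1r* and from −0.25 to 0.29 for *Cd68*, and vehicle against normal liver from −0.68 to 0.43 for *Marco*.

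The Kupffer-restricted minus general value in normal liver was −0.23 without *Cd68*, an alternative added after the data had been seen. In vehicle-treated tumors it was −1.95 and −2.02 with pseudocounts of 0.1 and 0.01 and −1.30 without *Cd68*, and under MLN0128 −1.98 and −2.14 with those pseudocounts. With the replicate number as a block, *Clec4f* in vehicle against normal liver stayed at −3.55 (adjusted p = 0.0018), and the replicate block changed no count of called members: 4 lower and 1 higher for vehicle, 8 lower for MLN0128 and 5 lower for everolimus against normal liver.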
